A study of Vitis vinifera and Vitis vinifera
Schisandra chinensis with 13 samples.

Results

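Near-perfect target sites are the predicted miRNA target sites in which a known grapevine or plant miRNA pairs almost without mismatch to a transcript. They were taken as the entries of the degradome table whose small RNA is a known miRNA and whose alignment score, a penalty that grows with each mismatch, is 1.5 or lower, whether or not the degradome detected them. These are 366 of the 8858 predicted sites, and 6521 other sites of known miRNAs have scores from 2 to 4. The rule used the pairing and the name of the miRNA only, so detection, reads and expression are independent of it.

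The study compared 2 groups of grapevines of the *V. vinifera* cultivar 'Hongruibao'. The Vv plants were self-rooted. The Vs hybrids were scions of the same cultivar grafted 25 years earlier onto rootstocks of *Schisandra chinensis*, a woody vine of another family. The samples of both groups are labelled with an age of 25 years. RNA of leaves, phloem and ripe berries was pooled within each plant, and 3 plants per group gave 6 RNA-seq and 6 small RNA libraries. The degradome was 1 library into which equal parts of all 6 plants were mixed, although its title names Vv alone, so it gives no comparison between the groups.

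In plants, a miRNA guides an Argonaute protein to a transcript that pairs with most of its length, and the protein cuts the transcript opposite the middle of the miRNA. Degradome sequencing reads the uncapped 5′ ends that such cuts leave, so a stack of reads starting at the predicted position marks a cleaved site. Many old plant miRNA families act on transcription factors: miR156 on SPL factors that time the change from juvenile to adult growth, miR160 on auxin response factors, miR171 on GRAS factors, miR172 on AP2-type factors and miR169 on NF-YA subunits. Others act on F-box proteins, nutrient transporters and the silencing machinery itself.

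The following mature sequences, as the deposited degradome table gives them with T for U, carry the results described here. Capitals mark the seed, bases 2 to 8 from the 5′ end. In a name, L and R give bases added to or missing from the 5′ or 3′ end of the miRBase entry, and p5 or p3 after MIR marks an arm inferred from the precursor. The first set holds miRNAs of the sites with most reads (miR828, miR393, miR403, miR160 and miR171) and, for miR828, miR171 and miR156, pairs of one family whose 5′ ends differ.
vvi-miR828a: tCTTGCTCaaatgagtattcca
mes-miR828a_L+1: cTCTTGCTcaaatgagtattcca
tcc-miR393a_1ss22CT: tCCAAAGGgatcgcattgatct
vvi-miR403a: tTAGATTCacgcacaaactcg
vvi-miR160c: tGCCTGGCtccctgtatgcca
vvi-miR171a: tGATTGAGccgtgccaatatc
vvi-miR171f: tTGAGCCGcgccaatatcact
vvi-miR156b: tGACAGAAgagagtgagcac
vvi-miR156a_L+1: tTGACAGAagagagggagcac

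The second set shows miR169, in which a further base at the 5′ end moves the seed. All 9 sites of the seed AGCCAAG were detected and none of the 11 sites of the seed GAGCCAA, but the seeds lay on different transcripts.
vvi-miR169v: aAGCCAAGgatgaattgccgg
vvi-miR169f: cAGCCAAGgatgacttgccga
vvi-miR169l_L+1R-1: tGAGCCAAggatgacttgccg

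The third set pairs without penalty (score 0) to at least 1 transcript, the first 2 with reads at the site and the last 2 with none.
vvi-miR3624-3p: tCAGGGCAgcagcatactact
vvi-miR3635-3p: aTTATGTCccacacatgcctc
vvi-miR396b_R+1_1: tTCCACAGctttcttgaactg
rgl-miR5139_L-1: aACCTGGCtctgatacca

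The last set has the most near-perfect sites without a read. The first has 25 such sites and the second 19.
vvi-MIR3629b-p5_2ss6CT20GA: tTTCTTAGcaaccaaacagag
ath-miR5658_R-3_1ss13AT: aTGATGATgatgttgatg

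Of the 366 near-perfect sites, 142 were detected in the degradome, a share of 38.8% (exact 95% binomial interval 33.8 to 44.0%), and 224 were not. Among sites of known miRNAs with scores from 2 to 4, 1300 of 6521 were detected (19.9%, interval 19.0 to 20.9%). Reads at detected near-perfect sites had a median of 12, against 3 at detected sites of higher score. Category 0, in which the site holds the highest read stack of its transcript, was given to 74 of the 142 detected near-perfect sites (52.1%) and to 298 of the 1300 others (22.9%). These intervals cover counting error only. Sites share transcripts, loci and miRNAs, and 1 pooled library was sequenced, so no test was made.

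Detection did not follow the score within the near-perfect range. The share was 16.9% at score 0 (10 of 59 sites), 58.8% at score 0.5 (20 of 34), 45.7% at score 1 (79 of 173) and 33.0% at score 1.5 (33 of 100). Just outside the limit, at score 2, it was 44.1% (189 of 429), and it was 16.1% at score 4 (594 of 3694). Sites without any penalty were thus detected about as seldom as the loosest sites in the table, with intervals of 8.44 to 29.0% and 14.9 to 17.3%.

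**Figure D1:**
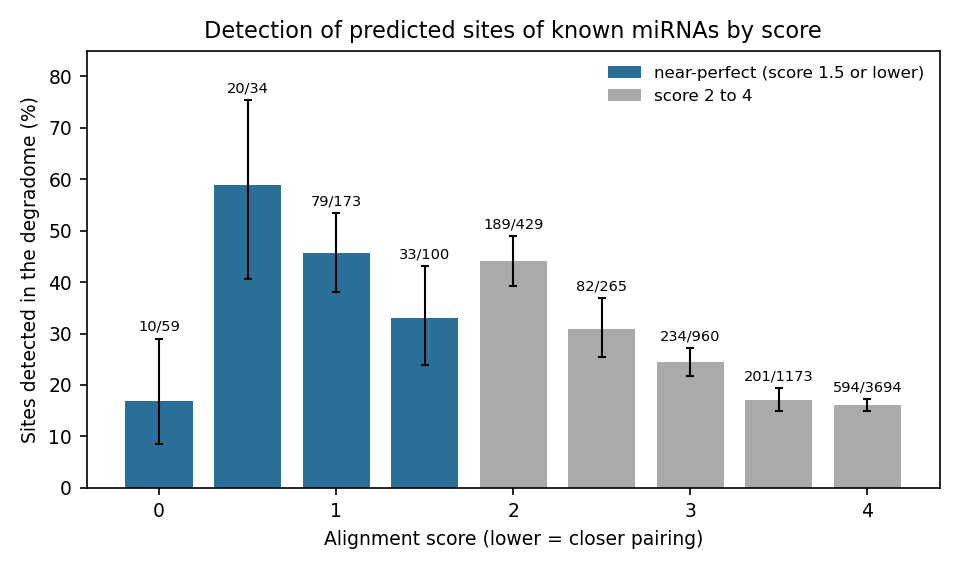
Share of predicted sites of known miRNAs detected in the degradome (y axis, percent) by alignment score (x axis), with detected and total sites above each bar and exact 95% binomial intervals as error bars. Blue bars are near-perfect sites and grey bars sites of score 2 to 4; the bar at score 0 (16.9%) stands near that at score 4 (16.1%), and the bar at score 0.5 (58.8%) is the highest.

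Transcripts of score 0 mostly fell outside any target class known for their miRNA family. Sites were sorted by the annotation of the transcript, with rules written after the annotations and detection were known: the target class known for the family (canonical), a transcript that carries sites of both arms of 1 miRNA hairpin, an annotated miRNA gene, rRNA, or any other. Of the 59 sites of score 0, 26 lay on transcripts of a hairpin, a miRNA gene or rRNA, with 1 detected. Another 32 lay on other transcripts, with 9 detected, and among these the 5 of miR5139 repeat sites listed under miR1511. The only canonical site of score 0, for vvi-miR399g on MSTRG.21700, was not detected. Over all scores, 117 of 153 canonical sites were detected (76.5%, interval 68.9 to 82.9%), against 24 of 151 other sites (15.9%, 10.5 to 22.7%). Families without a listed target class, such as miR3629 (34 sites), miR5658 (19 sites) and miR530 (17 sites), could not give canonical sites. The contrast is therefore partly one between families. On hairpin, miRNA gene and rRNA transcripts together, 1 of 62 sites was detected (1.61%, 0.0408 to 8.66%).

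The hairpin transcripts pair to both arms of the miRNA, as the strand opposite to the miRNA precursor would. In 14 pairs of 5′ and 3′ arm sites on 1 transcript, the distance between them could be compared with the distance in the listed precursor, and in 10 pairs it was equal to the base. These 10 pairs lie at 8 loci of miR156, miR164, miR319, miR3634, miR396 and miR5141. The vvi-MIR156h arms are 65 bases apart on VIT_12s0028g03350, as in the precursor, and those of miR3634 are 42 apart on MSTRG.8887. In the remaining 4 pairs, of miR164 and miR396, the distances differed by 3 to 14 bases. The strand of these transcripts was not examined, since no genome was used here. Reads were found at 1 of the 38 sites of this class, a single read at the vvi-MIR156h-p5 site.

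Detection also differed by the length and arm of the small RNA. None of 45 sites of 18-nt small RNAs was detected (upper limit 7.87%), among which 8 sites of 1 sequence stand under both miR1511 and miR5139. None of 17 sites of 24-nt small RNAs was detected either (upper limit 19.5%). The detected sites were 20 of 48 at 20 nt, 103 of 205 at 21 nt and 18 of 43 at 22 nt. Arms inferred from precursors had 1 detected site of 70 (1.43%), and listed mature miRNAs had 141 of 296 (47.6%). Target transcripts of a gene with a mean under 1 FPKM (fragments scaled to transcript length and library size) had 6 of 53 sites detected, those from 1 to 5 FPKM 47 of 110, and those at 5 FPKM or more 83 of 162. Within the canonical sites the contrast was 3 of 20 under 1 FPKM and 108 of 125 (86.4%, interval 79.1 to 91.9%) at 1 FPKM or more. Other transcripts at 1 FPKM or more had 21 of 119 (17.6%, 11.3 to 25.7%). Level of the miRNA went with detection less simply: 20 of 106 sites of miRNAs with a mean under 10 CPM (reads scaled to the library total), 107 of 210 from 10 to 1000 CPM, and 15 of 50 at 1000 CPM or more. The highest class includes the 8 miR2916 sites, on rRNA, and sites of miR319 and miR396 on hairpin transcripts, all undetected.

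The 366 sites come from 104 miRNA names with 95 sequences in 35 families and lie on 200 transcripts of 116 loci. Of the families, 16 had at least 1 detected site, 7 had all their sites detected (miR160, miR171, miR393, miR394, miR395, miR828 and miR3624) and 19 had none. The share fell to 30.2% when each family and locus counted once (38 of 126 pairs). Sites repeat in the table where a locus has several transcripts or where several miRNAs of a family share a position. The sequence listed under both miR1511 and miR5139 has the same 8 loci under each name, so these pairs still count in both families. The 142 detected sites rest on 46 distinct sets of reads with 6132 raw reads, and 123 of the 142 have reads that map to several positions, up to 8.

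**Figure D2:**
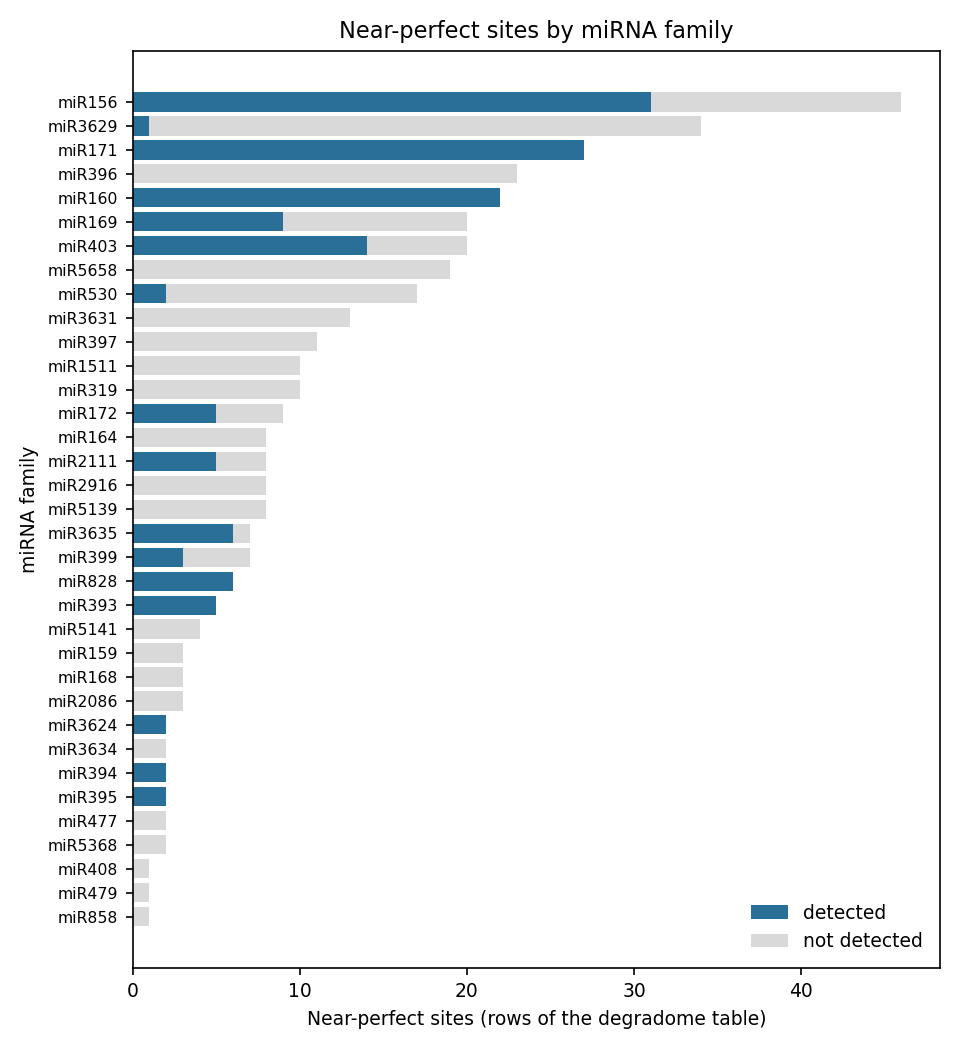
Number of near-perfect sites (x axis, entries of the degradome table) for each of the 35 miRNA families (y axis), detected sites in blue and undetected in grey. miR171 (27 sites) and miR160 (22 sites) are blue throughout, while miR396 (23 sites), miR5658 (19 sites) and 33 of the 34 miR3629 sites are grey.

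The reads were concentrated in few sites. The 3 sites with most reads, those of miR828, miR393 and miR403, held 2105, 1172 and 956 raw reads, and no other site held over 183. At every one of the 142 detected sites the listed cut lies opposite base 10 of the miRNA, which is how the table places the position and is no finding. Different 5′ ends of 1 family therefore probe neighbouring positions of the same transcript.

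**Figure D3:**
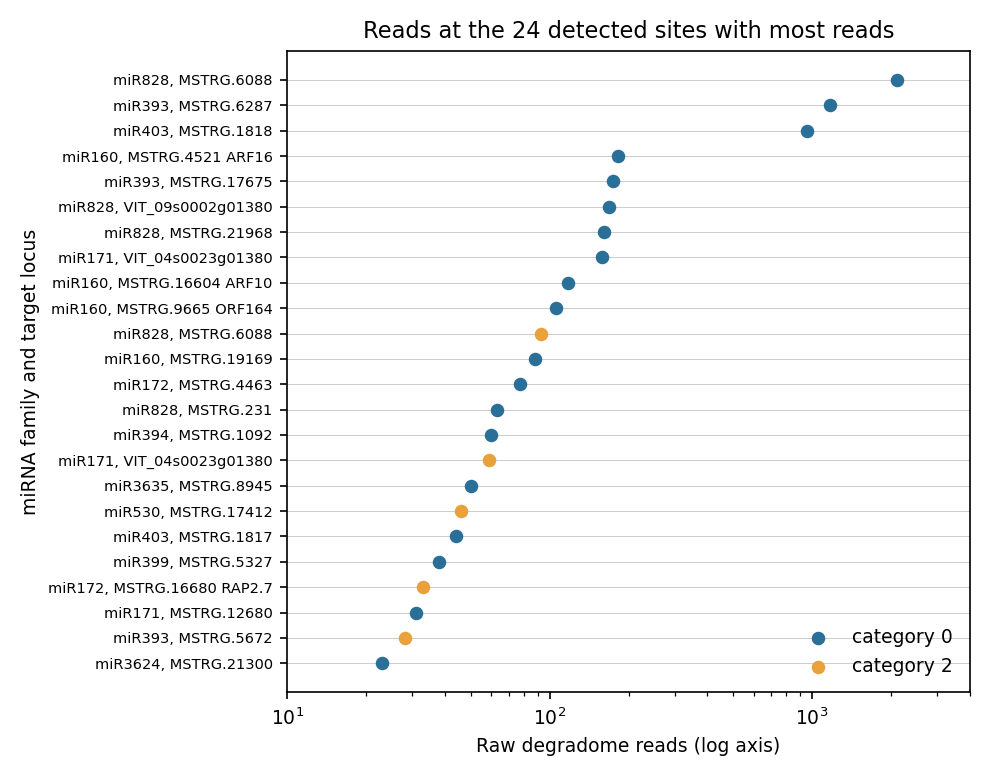
Raw degradome reads (x axis, log scale) at the 24 distinct detected sites with most reads (y axis, miRNA family and target locus), coloured by degradome category. The 3 sites of miR828, miR393 and miR403 hold 956 to 2105 reads, and the other 21 hold 23 to 183.

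The RNA-seq and small RNA libraries give the levels of the targets and miRNAs in both groups. Small RNA libraries held 1027871 to 1738257 reads assigned to miRNAs, and FPKM sums ran from 439752 to 582510. Leaf markers (20 LHC and Rubisco small subunit genes) summed to 11475, 17845 and 1723 FPKM in the Vv plants and 12881, 10625 and 15245 in the Vs hybrids, so Vv plant 3 stood far below the rest. Of the 16 tested, 1 had an adjusted p under 0.05 by limma, beside 0.44% of all genes tested. This was the LHC gene MSTRG.1533, at 658, 434 and 94.9 FPKM in Vv and listed at 0 in each Vs hybrid. It passed the filter of a mean of 1 FPKM through the Vv plants alone, so its call is not taken as a result. The sums do not show that 8 LHC genes, LHCA1, LHCA2, LHCA4, LHCB5 and LHCB6 among them, were higher in every Vs hybrid than in every Vv plant, with MSTRG.1533 the 1 gene lower without overlap, while 5.55% of all genes tested were higher and 26.2% lower without overlap. Berry markers (8 genes) summed to 122 to 369 in Vv and 80.7 to 230 in Vs, and phloem markers (6 genes) to 18.7 to 23.8 and 15.9 to 32.4. SUC2, SEOR, GRIP22, VVTL1 and UFGT were not found by symbol or description. Gene levels are given under the gene identifiers of the deposited table, in which rRNA, the metallothionein MT3 and a Rubisco small chain are among the highest. A supplementary list of the study sets many of the same values beside other identifiers. The study reports LHCA1, LHCA2, LHCA4 and LHCB5, under the same identifiers as here, as down-regulated in the Vs hybrids. The deposited values of these genes go the other way. Which pairing is right was not settled here, so each gene level in this text holds for the deposited identifier only. The part of tissue share in the results was not tested, and in pooled tissue fewer cells of a type and less RNA per cell cannot be told apart.

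Target genes of near-perfect sites changed about as often as all genes did. Of 98 genes matched to the sites, 73 passed the filter of a mean of 1 FPKM, and 1 had an adjusted p under 0.05 by limma with Benjamini-Hochberg adjustment, beside 0.44% of all 15447 genes tested (0.22% higher and 0.22% lower in the Vs hybrids). At an unadjusted p under 0.05 there were 15, beside 20.9% of all genes. Groups did not overlap for 22 of the 73 (30.1%), of which 5 were higher and 17 lower in the Vs hybrids, against 31.8% of all genes (5.55% higher and 26.2% lower). Fold changes lay below 0 for 59 of the 73, with a median log2 value of -0.35, while the median of all genes tested was -0.254. After median-ratio scaling the median of all genes was -0.00737, that of the targets was -0.093, and 45 lay below 0. The 32 tested genes with a detected site had 0 with an adjusted p under 0.05 and 4 at an unadjusted p under 0.05. Of their fold changes, 4 lay above and 28 below 0, with a median log2 value of -0.38, beside the -0.254 of all genes. After median-ratio scaling 23 of the 32 lay below 0, with a median of -0.132.

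The member miRNAs were likewise near the background. Of 93 distinct entries, 54 passed the count filter and 1, vvi-miR169v, had an adjusted p under 0.05 by edgeR's quasi-likelihood test, beside 5.72% of the 332 miRNAs tested (1.81% higher and 3.92% lower in the Vs hybrids). At an unadjusted p under 0.05 there were 13, beside 25.6%. Groups did not overlap for 22.2% of the 54 (6 higher and 6 lower in Vs), against 31.9% of all. Fold changes were above 0 for 22 and below 0 for 32, with a median log2 value of -0.128 against -0.0309 for all miRNAs tested.

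**Figure D4:**
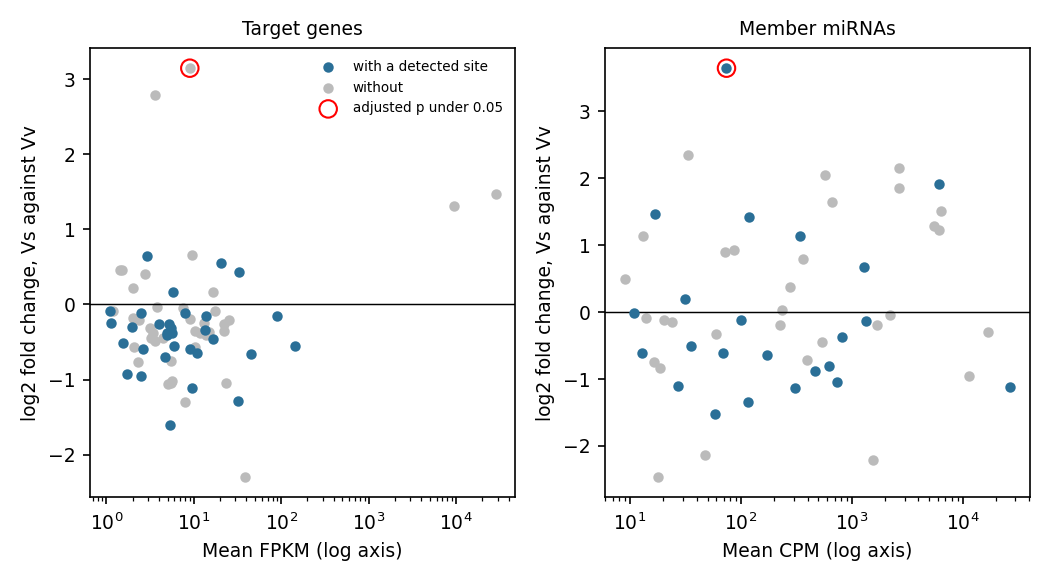
Log2 fold change of the Vs hybrids against the Vv plants (y axis) by mean level (x axis, log scale) for the 73 tested target genes (left, FPKM) and the 54 tested miRNAs (right, CPM). Blue points have a detected near-perfect site, grey points have none, and red rings mark the 2 features with an adjusted p under 0.05, MSTRG.16750 (3.14) and vvi-miR169v (3.64).

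Auxin response factors, the transcription factors that carry out auxin signalling, were the targets of miR160, and each of its 22 sites on 4 loci was detected with category 0. ARF16 (MSTRG.4521, chromosome 13) had 183 reads at positions 1507 to 1527 of its annotated transcript, ARF10 (MSTRG.16604, chromosome 6) 118, ORF164 (MSTRG.9665, chromosome 18) 106 and VIT_08s0040g01810 (MSTRG.19169, chromosome 8) 88. Looser miR160 sites were detected in 14 of 34 cases (41.2%). The 4 genes had similar low levels, between 4.66 and 5.19 FPKM on average.

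FPKM of ARF16 was 7.12, 5.54 and 4.61 in the Vv plants and 4.09, 5.45 and 4.34 in the Vs hybrids. ORF164 was at 5.45, 6.55 and 5.85 in Vv and 2.11, 4.2 and 3.79 in Vs. The groups overlapped for ARF16, ARF10 and VIT_08s0040g01810 and not for ORF164 (log2 fold change -0.70, SE 0.25, limma adjusted p = 0.204), and none passed the test. The most abundant guide, vvi-miR160c, was at 1062, 1086 and 639 CPM in Vv and 631, 657 and 857 in Vs, which also overlap (log2 fold change -0.38, SE 0.40, edgeR adjusted p = 0.582). vvi-miR160a_R-2, with sites on MSTRG.19169 and ORF164, was at 245, 135 and 119 CPM in Vv and 60.4, 42.8 and 92.9 in Vs. Its groups did not overlap, short of the threshold (log2 fold change -1.35, SE 0.52, edgeR adjusted p = 0.147). Those of mes-miR160a_1ss21AG overlapped (log2 fold change -1.1).

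The miR156 family had most sites of all, 46, on 10 loci, and 31 of them on 6 loci were detected, but with few reads. SPL2 (MSTRG.2652, chromosome 11) had the most, 12 reads of vvi-miR156a_L+1, followed by VIT_08s0007g06270 (MSTRG.19785, chromosome 8) with 9. The undetected canonical loci were MSTRG.1109, MSTRG.6320, VIT_15s0021g02290 and VIT_17s0000g01260, of which the last 3 had means of 0.36, 0.0709 and 0.198 FPKM. MSTRG.1109 (VIT_01s0010g03910) was not low: its FPKM was 6.97, 9.74 and 6.51 in Vv and 3.39, 2.85 and 3.35 in Vs. The groups did not overlap, and the log2 fold change of -1.04 (SE 0.21) had a limma adjusted p = 0.127.

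SPL2 was at 13.2, 20.2 and 12.2 FPKM in Vv and 10.3, 11.5 and 13.1 in Vs. Its groups overlapped (log2 fold change -0.34, SE 0.25, limma adjusted p = 0.447). The most abundant miR156 with near-perfect sites, vvi-miR156b, was at 125, 327 and 180 CPM in Vv and 126, 157 and 123 in Vs, with overlap and an edgeR adjusted p = 0.43. All 6 tested targets of the family had log2 fold changes below 0, the hairpin transcript MSTRG.3127 (-0.96) among them. Their median was -0.63, beside -0.254 for all genes tested. After median-ratio scaling 5 of them lay below 0, with a median of -0.43, beside -0.00737 for all genes.

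GRAS factors, regulators of meristems and shoot branching, were the targets of miR171, and all 27 sites on 3 loci were detected. VIT_04s0023g01380 (chromosome 4) had 159 reads for vvi-miR171a, VIT_02s0154g00400 (MSTRG.12680, chromosome 2) 31, and VIT_15s0048g00270 (MSTRG.7084, chromosome 15) 2. MSTRG.12680 was at 5.79, 7.2 and 6.35 FPKM in Vv and 7.02, 3.76 and 3.85 in Vs, and the groups overlapped. vvi-miR171a was at 1107, 2005 and 1072 CPM in Vv and 1237, 1486 and 1088 in Vs, also overlapping (log2 fold change -0.13, SE 0.41, edgeR adjusted p = 0.889).

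The seeds of vvi-miR171a and vvi-miR171f, printed above, are offset by 3 bases, and so are the cuts they predict. On VIT_04s0023g01380 the vvi-miR171a position held 159 reads and the vvi-miR171f position, 3 bases upstream, 59. On MSTRG.12680 the counts were 31 and 7, and on MSTRG.7084 2 and 1. Thus the vvi-miR171a register had more reads at each of the 3 loci, and both registers had at least 1.

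Other families showed the same kind of main and side position. For miR828 on MSTRG.6088 the vvi-miR828a position had 2105 reads and the next base, predicted by mes-miR828a_L+1, had 93. For miR403 on MSTRG.1818 the vvi-miR403a position had 956 and the position 2 bases downstream 6. For miR156 the higher position changed with the locus: on SPL2 and VIT_08s0007g06270 vvi-miR156a_L+1 had 12 and 9 reads against 3 each for vvi-miR156b, whereas on VIT_01s0010g03710 and VIT_17s0000g05020 vvi-miR156b had 4 and 3 against 3 and 2.

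MYB factors, the class counted as canonical here, are known targets of miR828, which had all 6 of its sites detected. The site with most reads of all near-perfect sites was that of vvi-miR828a on MSTRG.6088, an assembled locus without gene name or annotation in the files, at positions 181 to 202 of the transcript with score 0 and category 0. VIT_09s0002g01380 (chromosome 9), annotated with nuclear transcription terms, had 168 reads, MSTRG.21968 (VIT_00s0341g00050, unplaced) 161 and MSTRG.231, unannotated, 63.

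Levels of MSTRG.6088 were scattered within both groups, at 1.42, 5.45 and 6.5 FPKM in Vv and 0.251, 8.19 and 13.2 in Vs, the lowest and the highest both in Vs (log2 fold change 0.16, SE 0.96, limma adjusted p = 0.932). MSTRG.231 was listed at 0 in the 3 Vv plants and at 1.39, 0.668 and 0.186 FPKM in the Vs hybrids, under the filter, so it was not tested. vvi-miR828a was at 311, 283 and 1207 CPM in Vv and 368, 373 and 237 in Vs. Only Vv plant 3 stood out, and the groups overlapped (log2 fold change -0.88, SE 0.61, edgeR adjusted p = 0.384).

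AP2-type factors, which act in flowering time and flower development, were the canonical targets of miR172. vvi-miR172c had 77 reads at VIT_13s0019g03550 (MSTRG.4463, chromosome 13), 33 at RAP2.7 (MSTRG.16680, chromosome 6) and 5 at TOE3 (MSTRG.18349, chromosome 7). Its sixth site, on VIT_08s0040g03180, was on a gene with a mean of 0.0244 FPKM and was not detected. The 3 further miR172 sites, on MSTRG.4545 outside the canonical class, had no reads. MSTRG.4463 was at 11, 11.7 and 3.41 FPKM in Vv and 10.1, 6.23 and 5.66 in Vs, with overlap and a fold change whose sign turned with the scaling (log2 -0.11, and 0.15 after median-ratio scaling). vvi-miR172c was at 573, 2065 and 324 CPM in Vv and 433, 643 and 365 in Vs, overlapping as well.

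NF-YA factors, subunits of a CCAAT-binding complex, were the targets of miR169. The 9 detected sites were 7 of vvi-miR169v on transcripts of MSTRG.2039 (VIT_11s0016g01480, chromosome 11), with 6 reads, and 2 of vvi-miR169f on MSTRG.20101 (VIT_09s0002g01590, chromosome 9), with 3. The 11 undetected sites of the shifted seed lay on other transcripts: 8 on 2 annotated miRNA genes, and 3 on MSTRG.5727, of another annotation, at a mean of 21.9 FPKM. The seeds were therefore not compared on the same transcripts.

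vvi-miR169v was the member miRNA that passed the test, at 16.3, 14.1 and 2.09 CPM in the Vv plants and 263, 77.7 and 71.3 in the Vs hybrids, every Vs hybrid above every Vv plant (log2 fold change 3.64, SE 0.86, edgeR adjusted p = 0.047). Its target MSTRG.2039 was at 13.2, 12.5 and 7.67 FPKM in Vv and 9.3, 7.13 and 4.83 in Vs. These groups overlapped, and the log2 fold change of -0.59 (SE 0.31) had a limma adjusted p = 0.308. The call on vvi-miR169v was lost when any 1 of the 6 libraries was left out, with adjusted p from 0.0612 to 0.0912 and log2 fold changes from 2.75 to 4.07.

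F-box proteins, which mark other proteins for degradation, are the targets of miR393 (auxin receptors) and miR394. The 5 miR393 sites were all detected with tcc-miR393a_1ss22CT. Most reads, 1172, lay on MSTRG.6287 (VIT_14s0068g01330, chromosome 14, positions 1926 to 1946), which the degradome table does not annotate as an auxin receptor, then 174 on VIT_07s0104g01320 (MSTRG.17675, chromosome 7) and 28 on VIT_14s0030g01240 (MSTRG.5672, chromosome 14), both annotated with auxin signalling and inositol hexakisphosphate binding.

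MSTRG.6287 was at 49.5, 56.1 and 57.2 FPKM in Vv and 25.6, 34.5 and 44.6 in Vs. Each Vs hybrid lay below each Vv plant (log2 fold change -0.65, SE 0.26), and the limma adjusted p = 0.228 did not pass. MSTRG.5672 was at 14.3, 11 and 14.3 FPKM in Vv and 4.4, 5.09 and 7.46 in Vs, again without overlap (log2 fold change -1.11, SE 0.24, limma adjusted p = 0.133). MSTRG.17675, the other annotated auxin receptor, overlapped, with 44.5, 28.3 and 14.4 FPKM in Vv and 47.8, 28.6 and 34.1 in Vs (log2 fold change 0.44, SE 0.43). The miRNA was at 17.4, 20.5 and 50.2 CPM in Vv and 48.7, 17.9 and 33.7 in Vs, with overlap.

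miR394 had 60 reads at its only target, VIT_01s0010g03730 (MSTRG.1092, chromosome 1), whose annotation names leaf morphogenesis and auxin signalling. The gene varied widely within both groups, with 29.7, 3.7 and 5.2 FPKM in Vv and 1.74, 2.54 and 23.1 in Vs. miR394a and miR394b, which share 1 sequence here, were at 369, 398 and 494 CPM in Vv and 232, 92.6 and 247 in Vs, without overlap but short of the threshold (log2 fold change -1.14, SE 0.48, edgeR adjusted p = 0.169).

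miR2111 had 5 of 8 sites detected, all on MSTRG.6354 (VIT_14s0068g02150, chromosome 14), annotated in proteolysis and ubiquitination, with 5 reads shared by 5 transcripts. This gene was at 5.99, 5.96 and 14.3 FPKM in Vv and 1.14, 2.47 and 2.53 in Vs. It had the largest absolute fold change among targets with a detected site (log2 fold change -1.61, SE 0.39), without overlap, and a limma adjusted p = 0.153. vvi-miR2111-5p was at 156, 140 and 344 CPM in Vv and 111, 893 and 396 in Vs, and these groups overlapped (log2 fold change 1.13, SE 0.72, edgeR adjusted p = 0.351).

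**Figure D5:**
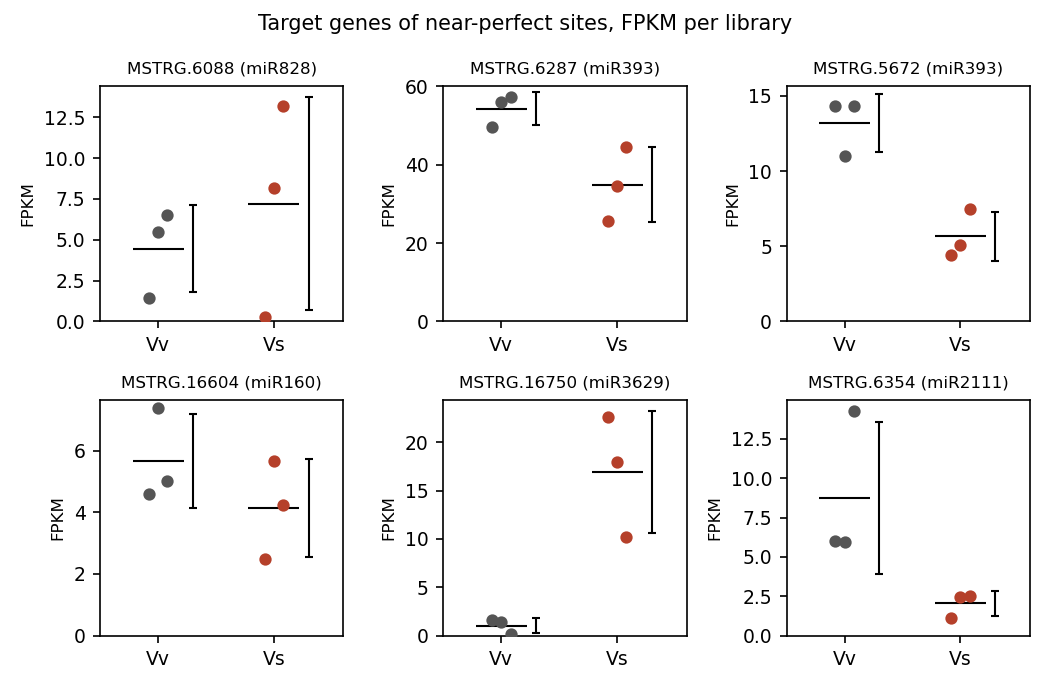
FPKM of 6 target genes in each library (points), with group mean (line) and SD (error bar beside the points, n = 3), for the Vv plants (grey) and the Vs hybrids (red), with the miRNA family in each title. MSTRG.16750 is at 0.183 to 1.57 in Vv and 10.2 to 22.6 in Vs, MSTRG.6287, MSTRG.5672 and MSTRG.6354 lie lower in every Vs hybrid, and MSTRG.6088 and MSTRG.16604 (ARF10) overlap.

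Sulfate and phosphate supply are the fields of miR395 and miR399. Both sites of vvi-miR395a, on the sulfate transporter AST56 (MSTRG.9690, chromosome 18), were detected with 7 reads. AST56 was at 31.0, 21.4 and 4.45 FPKM in Vv and 24.7, 20.6 and 21.3 in Vs, which overlap.

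For miR399, vvi-miR399e had 38 reads on MSTRG.5327 (VIT_14s0060g00010, chromosome 14), annotated as a ribosomal constituent, and 4 on MSTRG.21700 (VIT_00s0265g00070, unplaced), annotated as a ubiquitin ligase, at positions 653 to 673. vvi-miR399g pairs to MSTRG.21700 without penalty at positions 549 to 569 and had no reads there. vvi-miR399g was at 463, 158 and 346 CPM in Vv and 369, 658 and 1989 in Vs, with overlap (log2 fold change 1.64, SE 0.69, edgeR adjusted p = 0.169). It has no near-perfect site on MSTRG.5327. The miRNA with the reads, vvi-miR399e, was at 139, 24.3 and 93.4 CPM in Vv and 29.8, 49.8 and 10.4 in Vs. These groups overlapped too (log2 fold change -1.52, SE 0.77, edgeR adjusted p = 0.253). MSTRG.5327 was at 1.37, 2.36 and 2.32 FPKM in Vv and 1.1, 0.925 and 1.22 in Vs, without overlap (log2 fold change -0.52, SE 0.26, limma adjusted p = 0.294).

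Argonaute genes, the silencing proteins themselves, are targets of miR403 and miR168. For miR403, 14 of 20 sites on 3 neighbouring loci of chromosome 10 annotated with gene silencing by RNA were detected. The 956 reads map both to MSTRG.1818.1 and to VIT_10s0042g01180.t01 of MSTRG.1819, so they cannot be assigned to 1 of these loci. MSTRG.1817 had 44. Looser miR403 sites were detected in 2 of 45 cases (4.44%).

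vvi-miR403a was at 809, 925 and 1224 CPM in Vv and 1414, 1521 and 1784 in Vs. Every Vs hybrid was above every Vv plant, but the log2 fold change of 0.67 (SE 0.38) did not pass (edgeR adjusted p = 0.286). MSTRG.1818 was at 2.73, 0.823 and 2.69 FPKM in Vv and 3.91, 4.88 and 2.34 in Vs, and MSTRG.1819 at 0.76, 1.13 and 1.55 in Vv and 0.837, 0.742 and 1.51 in Vs. Both overlapped. The 3 near-perfect miR168 sites were on 1 unannotated locus, MSTRG.13024, and had no reads. Looser miR168 sites were detected in 4 of 28 cases (14.3%), each of category 0, with up to 36 reads.

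The rest of the miRNA machinery, given as the pathway around these sites, held 12 genes found by symbol, of which 11 were tested and 0 had a limma adjusted p under 0.05, beside 0.44% of all genes. DCL4, AGO1, AGO2, AGO4, AGO7, AGO10, SE, HEN1, SDN1, CBP20, CBP80, DDL and XRN4 were not found by symbol. At an unadjusted p under 0.05 there were 2 of the 11, beside 20.9% of all genes. These were DCL1, the enzyme that cuts miRNAs from their precursors, and TGH, a cofactor of that step. DCL1 was at 10.8, 14.3 and 12.4 FPKM in Vv and 4.68, 7.31 and 6.71 in Vs, without overlap (log2 fold change -0.91, SE 0.23, limma adjusted p = 0.153). TGH was at 9.02, 9.73 and 5.61 in Vv and 2.43, 4.47 and 4.97 in Vs (log2 fold change -0.89, SE 0.31, limma adjusted p = 0.198). AGO5 was level, with a log2 fold change of 0.01 (SE 0.18).

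Outside these classes, 4 families had reads at targets. miR3624, a grapevine family, had both sites detected at score 0 on 2 neighbouring unplaced loci, VIT_00s0194g00300 (23 reads) and VIT_00s0194g00340 (2 reads), annotated in transition metal transport. The first, MSTRG.21300, was under the filter at 0.131 to 0.649 FPKM over the 6 libraries. vvi-miR3624-3p was at 33097, 65712 and 12292 CPM in Vv and 8097, 21158 and 21831 in Vs, with overlap (log2 fold change -1.12, SE 0.61, edgeR adjusted p = 0.269).

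miR3635 had 50 reads at score 0 on VIT_17s0000g05850 (MSTRG.8945, chromosome 17), annotated as a lipid-transporting ATPase, in 6 transcripts of the locus. This gene was at 20.9, 17.7 and 19.9 FPKM in Vv and 11.7, 15.5 and 14.8 in Vs, without overlap and with little spread (log2 fold change -0.46, SE 0.20, limma adjusted p = 0.248). The seventh miR3635 site, also of score 0, was on MSTRG.10909, at a mean of 0.00104 FPKM, and had no reads. vvi-miR3635-3p was at 553, 623 and 1189 CPM in Vv and 590, 340 and 428 in Vs, which overlap.

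miR530 and miR3629 had reads on ribosomal protein genes of high level. tcc-miR530b_L+2R-1_1 had 46 reads of category 2 on VIT_06s0080g00400 (MSTRG.17412, chromosome 6), at 60.1, 93.6 and 133 FPKM in Vv and 92.2, 83.6 and 69.6 in Vs. The 15 other miR530 sites, on MSTRG.15681, had none. The only detected miR3629 site, with 8 reads of category 2, was on VIT_07s0031g01230 (MSTRG.18409, chromosome 7), at 141, 151 and 222 FPKM in Vv and 113, 123 and 106 in Vs. In both genes the stack at the site was not the highest of the transcript. The 2 miR530b sequences, with the same counts in every library, were at 4070, 2601 and 1109 CPM in Vv and 11681, 8017 and 9559 in Vs, without overlap (log2 fold change 1.91, SE 0.50, edgeR adjusted p = 0.0639).

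The 25 sites of vvi-MIR3629b-p5_2ss6CT20GA lay on 13 loci, mostly of unlike annotation, and none had a read. One of these loci gave the only target gene past the test. MSTRG.16750 (VIT_06s0004g04470, chromosome 6), annotated with ATP binding, was at 1.57, 1.4 and 0.183 FPKM in Vv and 22.6, 18 and 10.2 in Vs, the lowest Vs hybrid far above the highest Vv plant (log2 fold change 3.14, SE 0.41, limma adjusted p = 0.0476). The call was lost without any 1 of the 6 libraries, with adjusted p from 0.0658 to 0.211 and log2 fold changes from 2.79 to 3.45. As its site was not detected, it is a predicted target only.

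Further targets of miR3629 were among those with the largest changes. MSTRG.22584, unannotated, had 0.172 FPKM in Vv plant 3 and was listed at 0 in Vv plants 1 and 2, while its FPKM was 2.62, 8.2 and 10.5 in the Vs hybrids. It passed the filter through the Vs hybrids alone, so its fitted difference is not given as a result, and it is the 1 gene counted as past the threshold when Vs hybrid 1 was left out. MSTRG.5473 (VIT_14s0060g01980, chromosome 14), a plasma membrane protein, was at 29.7, 43.2 and 117 FPKM in Vv and 3.07, 26.5 and 11.1 in Vs (log2 fold change -2.30, SE 0.80, limma adjusted p = 0.198), and RHB1A (MSTRG.7424, chromosome 15) was at 22.2, 31.7 and 41.6 in Vv and 7.96, 20.2 and 18.1 in Vs (-1.05, SE 0.41, adjusted p = 0.224). Neither overlapped. In the family as a whole, 17 targets were tested, 4 with fold changes above and 13 below 0, or 10 below 0 after median-ratio scaling.

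The families without any detected near-perfect site differed in their targets' levels. Some had detected looser sites: 132 of 566 for miR396, 12 of 64 for miR397, 20 of 21 for miR3634 and 5 of 106 for miR858. miR397 pairs to 8 laccase loci, enzymes of lignin formation, in 11 canonical sites. Of these genes, only MSTRG.19432 (VIT_08s0007g01910) passed the filter, at 0.818, 1.26 and 0.32 FPKM in Vv and 5.39, 1.09 and 0.0516 in Vs. vvi-miR397a was at 474, 72.4 and 124 CPM in Vv and 120, 396 and 2252 in Vs, with overlap in both. For miR396, 18 of its 23 sites lay on 2 hairpin transcripts, MSTRG.2415 and MSTRG.2416, at 0.658 and 0.53 FPKM, although vvi-miR396b_R+1 was abundant, at 9414, 12769 and 22833 CPM in Vv and 7236, 7721 and 8177 in Vs (log2 fold change -0.96, SE 0.39, edgeR adjusted p = 0.163).

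The identical 18-nt sequence of rgl-miR5139_L-1 and ppe-miR1511-3p_L+1R-4, printed above, had 8 sites without a read. They are listed under each name, which makes 16 entries. Its only targets with a matched gene had means up to 0.00754 FPKM. ath-miR5658_R-3_1ss13AT, which repeats the triplet of its seed, had 19 undetected sites on 11 loci, and its deposited count was 0 or below 1 read in every library. Its targets were not low, with means up to 25.5 FPKM for VIT_11s0052g01480 (MSTRG.2851, chromosome 11), a protein kinase annotation. MSTRG.7074 (VIT_15s0021g02730, chromosome 15), of vesicle coating, was at 5.96, 8.25 and 9.57 FPKM in Vv and 2.48, 5.05 and 2.84 in Vs, without overlap (log2 fold change -1.03, SE 0.29, limma adjusted p = 0.166).

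A pair of undetected loci stood apart in level. All 8 miR2916 sites were on the small subunit rRNA (MSTRG.21877), at 21778, 12249 and 12008 FPKM in Vv and 44448, 47925 and 32228 in Vs. The miR858 site was on MSTRG.22008, unannotated, at 6952, 5133 and 4362 FPKM in Vv and 17019, 13868 and 9940 in Vs. Both were higher in every Vs hybrid without passing the test (log2 fold changes 1.47, SE 0.69, and 1.3, SE 0.54, limma adjusted p = 0.272 and 0.239). peu-MIR2916-p5_1ss5AG was at 1455, 935 and 8651 CPM in Vv and 13083, 3955 and 8678 in Vs, with overlap.

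Across the matched genes, those with a detected site had a median level of 5.19 FPKM (37 genes, 0.264 to 143) and those without 3.22 FPKM (61 genes, 0.00104 to 28439). Among the miRNAs the medians were 101 CPM with a detected site (27 entries) and 6.65 CPM without (66 entries). Of the genes without a detected site, 20 of 61 were under 1 FPKM, against 5 of 37 with one.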

How the data were processed

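The members and lists were chosen with earlier results of these data known, and the annotation classes after detection was known. The degradome library was made from equal parts of the 6 plants, and the authors mapped its reads to gene models and StringTie transcripts and predicted sites with CleaveLand and psRNATarget. For each site they deposited the alignment score and the category score, from 0 to 4, the raw read count, the signal (raw reads divided by the number of positions to which they map) and an unadjusted p-value, which was used in 1 alternative only. Chromosomes were read from VIT locus names. Of the 200 transcripts, 176 were matched to the gene table by ID and 5 by name, and 19 were not matched.

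The authors mapped RNA-seq reads with HISAT and deposited FPKM from StringTie. The sources used here do not give the genome build. The deposited miRNA values are estimated counts of reads from 18 to 25 nt, mapped to miRBase precursors by the authors with ACGT101-miR and divided between precursor loci. The 6 normalized miRNA columns were not used. A supplementary list of the study sets many of the FPKM values beside other gene identifiers, and the values were used as deposited.

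Genes with a mean of 1 FPKM or more were fitted on log2(FPKM + 1) with limma 3.58.1 (R 4.3.3), so fold changes of low genes are understated. miRNA counts were rounded, entries with identical counts were used once (972 of 1178), and the 332 entries that passed filterByExpr were fitted with edgeR 4.0.16 (quasi-likelihood, TMM), with DESeq2 1.42.0 as an alternative. Each fit compared 3 Vv plants with 3 Vs hybrids, without covariates, and p-values were adjusted by Benjamini-Hochberg over all features tested, with 0.05 as the threshold. Each fit was first tested on simulated data. Intervals are exact Clopper-Pearson 95% intervals, which cover counting error only. Raw small RNA and degradome reads set the precision of those values, and the depth behind FPKM is unknown. Figures were drawn with matplotlib 3.10.9 (Python 3.11.15).

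Genes and miRNAs were named by rule. For each family these are its miRNA of highest CPM, its target with most degradome reads or, with no detected site, its target of highest FPKM, and its sites of score 0. Added were every feature past the threshold, the 10 targets of largest absolute fold change whose groups did not overlap, the 15 sites with most reads and the genes of the miRNA pathway. Targets, miRNAs and registers outside this rule were chosen after their values were seen. Alternatives changed the score limit, the unit of a site, the detection call, filters, pseudocount, scaling, tool and replicate block, and left out each library in turn.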

Additional observations from a re-analysis of the deposited data

How the results depend on the processing

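The detected share of 38.8% lay between 36.3 and 41.6% with score limits of 1 and 2, distinct positions, VIT transcripts only, at least 2 reads or categories 0 to 2. It was 32.3% at a score of 0.5 or lower, 30.2% with 1 locus per family and 18% with a degradome p-value of 0.05 or lower. The single target gene past the limma threshold, MSTRG.16750, stayed there after median-ratio scaling (adjusted p = 0.0477) and quantile normalization (0.0437). The count was 0 with a filter at 5 FPKM (adjusted p = 0.0592), no filter (0.0952), a pseudocount of 0.1 FPKM (0.101), the replicate block (0.0567) and VIT locus names only, and 0 to 1 when 1 library was left out. Over all genes tested, 68 passed in the main design (34 higher and 34 lower in Vs), 53 on median-ratio scaled values (38 and 15), 52 on quantile-normalized values (35 and 17), 45 with the filter at 5 FPKM, 35 with no filter, 8 with the replicate block and 19 to 73 without 1 library. The 73, of which 57 were higher, came without Vs hybrid 1.

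Of the miRNAs, 1 passed in the main design and 1 with entries of the same sequence summed, an alternative chosen after seeing the data. The count was 6 with DESeq2, 4 with no filter on low counts, 0 with RLE factors, 0 with library size only, 0 with at least 10 counts in every library, 0 with the replicate block, and 0 to 3 when 1 library was left out, the 3 without Vv plant 1. For vvi-miR169v the adjusted p was 0.000352 with DESeq2, 0.00657 with no filter, 0.0569 with RLE factors, 0.051 with library size only and 0.0615 with the replicate block, and the filter at 10 counts removed it. miR530b passed with DESeq2 (0.0126), with no filter (0.0412) and without Vv plant 1 (0.0488), and vvi-MIR477a-p5 with DESeq2 (0.0088). Over all miRNAs, 19 passed in the main design, 45 with DESeq2, 40 with no filter, 0 with at least 10 counts, 2 with the replicate block and 2 to 16 without 1 library.

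The replicate numbers did not pair the plants: same-numbered plants had correlations of deviations of 0.169, -0.0468 and 0.0375 over genes and -0.178, 0.00829 and -0.114 over miRNAs.

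Some log2 fold changes that passed no threshold changed sign. After median-ratio scaling they became 0.154 for MSTRG.4463, 0.198 for MSTRG.12865, 0.00478 for MSTRG.8887, 0.064 for MSTRG.1819, 0.0358 for MSTRG.7975, 0.133 for MSTRG.17412 and 0.0766 for MSTRG.2851. After quantile normalization they became 0.0979 for MSTRG.4463, 0.113 for MSTRG.12865, 0.0538 for MSTRG.17412 and 0.0362 for MSTRG.2851. With a pseudocount of 0.1 MSTRG.6088 was at -0.175, and with the replicate block vvi-miR169l_L+1R-1 was at 0.0145. Leaving out 1 library gave -0.603 to 0.159 for MSTRG.4463, -0.28 to 0.293 for MSTRG.12865, -0.395 to 0.0346 for MSTRG.8887, -1.63 to 0.189 for MSTRG.1092, -0.21 to 1.07 for MSTRG.9690, -0.243 to 1.06 for MSTRG.19432, -0.247 to 0.0464 for MSTRG.1819, -0.391 to 0.401 for MSTRG.7975, -0.454 to 0.114 for MSTRG.17412, -0.624 to 0.106 for MSTRG.2851 and -0.529 to 1.22 for MSTRG.6088. Among miRNAs it gave -0.423 to 1.9 for rgl-miR5139_L-1, -1.32 to 0.743 for vvi-miR169l_L+1R-1, -0.385 to 0.287 for vvi-miR171a, -1.56 to 0.139 for vvi-miR172c, -0.299 to 0.0811 for vvi-miR3629a-5p, -0.112 to 0.749 for tcc-miR393a_1ss22CT and -1.08 to 0.0453 for vvi-miR828a. The cause of these changes was not tested.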
